A study of Mus musculus with 8 samples.

Results

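The 37 genes described here carry glucose into the cell and through glycolysis and glycogen turnover. They were taken as a list of named genes, with the alternative isozymes of each step side by side, out of 55471 gene rows measured in mouse heart. RNA was sequenced from 8 heart samples of mice aged 14 weeks, 4 labelled wild type (WT) and 4 labelled TAZG197V. TAZG197V is a CRISPR/Cas9 knock-in of a patient point mutation in tafazzin (Taz), the X-linked mitochondrial enzyme that remodels the phospholipid cardiolipin, and serves as a model of Barth syndrome. The edit was made in C57BL/6N zygotes and carried into C57BL6/J by crossing, the mice were untreated, and per the study the TAZG197V animals were hemizygous males. The part of the heart that was taken was not given. The study asked which transcripts differ between TAZG197V and WT hearts, and here the question is which isozyme moved at each step.

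Glucose enters a heart muscle cell mainly through GLUT4 (Slc2a4), which insulin and contraction bring to the surface, and to a smaller degree through GLUT1 (Slc2a1), which sits there constantly. Hexokinase traps it, and the product is either broken down to pyruvate and lactate or stored as glycogen on a core of the protein glycogenin. Most of these steps have several genes, of which the muscle or heart form dominates in the adult heart, while the other forms are better known from the fetal heart, brain, platelets, liver or dividing cells. The adult heart draws most of its energy from fatty acids.

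Of the 37 genes, 24 (64.9%) changed in TAZG197V hearts, 13 of them upward and 11 downward. Over all 15084 genes tested, 33.5% were called, 18.5% higher and 15.1% lower in TAZG197V. A gene was called when the edgeR quasi-likelihood test gave an adjusted p under 0.05, its log2 fold change exceeded 0.202 up or down and its mean scaled count reached 50. All 37 passed the filter on low counts, with mean scaled counts from 74.4 to 58118. The median log2 fold change of the 37 genes was 0.04, against -0.01 over all genes tested. The genotypes did not overlap in 19 of the 37, with TAZG197V above WT in 10 and below in 9, where 33.2% of all genes tested had no overlap. Within a step the directions differed: the muscle form fell and another form rose in glucose transport, hexokinase, phosphofructokinase, phosphoglycerate mutase and enolase.

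**Figure D1:**
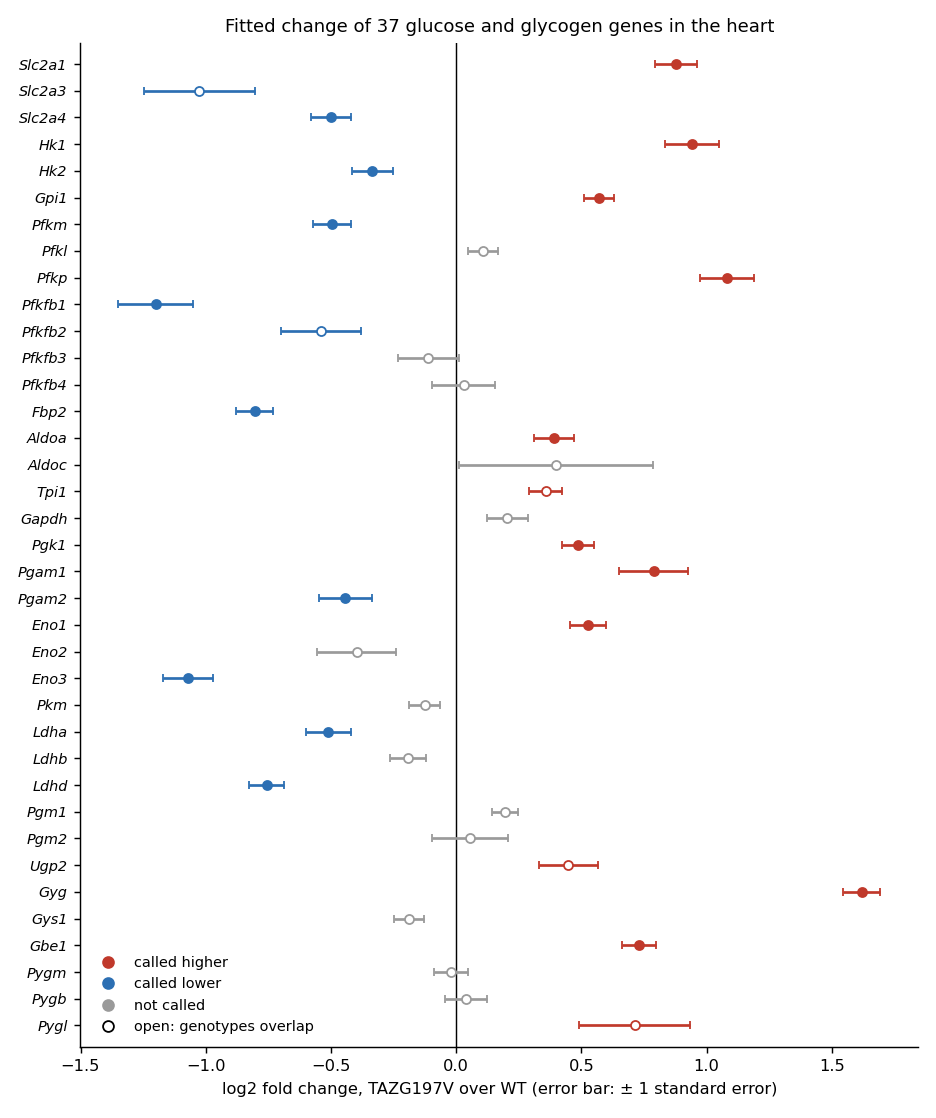
Fitted log2 fold change of each of the 37 genes, TAZG197V over WT, with 1 standard error on either side, in pathway order from glucose transport at the top to glycogen at the bottom. Red points were called higher, blue lower and grey not called, and open points mark genes whose 4 WT and 4 TAZG197V libraries overlap. Gyg lies farthest to the right at 1.62, and Pfkfb1, Eno3 and Slc2a3 lie farthest to the left at -1.20, -1.07 and -1.03.

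Levels are counts scaled to a common library size by TMM (CPM) unless another scale is named. Library totals ran from 23055689 to 36301031 counts. Taz itself ran from 58.7 to 63.8 CPM in WT and from 44.3 to 50.4 CPM in TAZG197V, with a log2 fold change of -0.37, and counts over exons cannot show the edited base. The 8 ventricular markers summed to 59463 to 68273 CPM in WT and 50666 to 54808 CPM in TAZG197V, and 4 of the 8 were called lower. The skeletal muscle markers summed to at most 4.16 CPM in any library. WT library 4 held 55072 CPM of red cell transcripts, where the other WT libraries held 346 to 1065 CPM and the TAZG197V libraries 227 to 571 CPM. The brain markers summed to 254 CPM in WT library 4 and 453 CPM in TAZG197V library 4, against 58.3 to 111 CPM in the other 6. For the genes named below, results that rest on either number 4 library are given with and without it. Counts of called genes use all 8 libraries unless another set is named, and some genes counted but not named change their call without a number 4 library. In pieces of tissue, fewer cells of a type and less RNA per cell cannot be told apart.

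Ranked per kilobase of merged exon, which allows levels of different genes to be compared, Eno3, the muscle enolase, was the highest of the 37 in WT with 841 ± 114 CPM per kb (SD, n = 4). Ldhb, the heart lactate dehydrogenase subunit, followed with 640 ± 62.8 CPM per kb, and Aldoa, the muscle aldolase, with 586 ± 66.0 CPM per kb. The range of Eno3 lay above that of Ldhb, while Ldhb and Aldoa overlapped, as did Aldoa and Pgam2, the muscle phosphoglycerate mutase, at 495 ± 81.3 CPM per kb. In TAZG197V the order at the top was Aldoa with 778 ± 36.9, Ldhb with 564 ± 48.7 and Eno3 with 405 ± 46.6 CPM per kb. Gyg, the glycogenin gene, moved from place 14 in WT with 68.2 ± 5.88 CPM per kb to place 8 in TAZG197V with 212 ± 29.4 CPM per kb. The lowest WT means were those of Aldoc, Eno2 and Pygl, all under 1 CPM per kb and all raised by WT library 4. In WT libraries 1 to 3 Aldoc, Eno2 and Slc2a3 were the lowest, with Slc2a3 at 0.394 to 0.514 and Pygl at 0.634 to 0.743 CPM per kb. Merged exons count rarely used ones too, which lowers a per kilobase level, and 7 of the 37 had over 20% of their 50-base exon windows in other genes: Pgk1, Ldhd, Pgam1, Eno1, Pkm, Gapdh and Ldhb. The handling of reads with several matches is not given in the sources used here, so the levels of these 7 are uncertain.

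Before the values, the stretches upstream of a pair of opposed isozymes are shown for 2 of the steps where the muscle gene fell and another form rose. Those of glucose transport, hexokinase and phosphofructokinase, which were opposed too, are not printed. The 250 bases before the annotated start come from RefSeq on GRCm38.p6, each on the strand of its gene, at chr11:5803797-5804046 (minus) for Pgam2, chr19:41911621-41911870 (plus) for Pgam1, chr11:70656926-70657175 (plus) for Eno3 and chr4:150236458-150236707 (plus) for the most upstream of the Eno1 starts. None of the 4 windows touches an exon annotated in GENCODE M21. Capitals mark every match, on either strand, to 5 motifs, namely the E box CACGTG, the hypoxia-response cores ACGTG and GCGTG, the stress-response element TGATGNAA and the MEF2 motif, where ACGTG also lies inside CACGTG.
Pgam2: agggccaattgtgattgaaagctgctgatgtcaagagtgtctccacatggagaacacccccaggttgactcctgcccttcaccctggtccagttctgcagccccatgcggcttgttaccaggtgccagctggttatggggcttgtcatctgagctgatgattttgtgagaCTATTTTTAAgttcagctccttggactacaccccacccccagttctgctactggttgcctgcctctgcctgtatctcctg
Pgam1: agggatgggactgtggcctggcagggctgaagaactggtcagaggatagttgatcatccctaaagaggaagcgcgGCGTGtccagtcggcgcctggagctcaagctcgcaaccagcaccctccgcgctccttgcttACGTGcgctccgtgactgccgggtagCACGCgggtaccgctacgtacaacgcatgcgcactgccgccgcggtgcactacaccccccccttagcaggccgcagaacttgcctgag
Eno3: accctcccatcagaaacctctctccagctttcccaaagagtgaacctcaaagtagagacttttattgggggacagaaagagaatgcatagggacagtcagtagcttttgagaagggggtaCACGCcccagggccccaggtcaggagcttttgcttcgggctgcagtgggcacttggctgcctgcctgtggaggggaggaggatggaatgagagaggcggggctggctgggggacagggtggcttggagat
Eno1: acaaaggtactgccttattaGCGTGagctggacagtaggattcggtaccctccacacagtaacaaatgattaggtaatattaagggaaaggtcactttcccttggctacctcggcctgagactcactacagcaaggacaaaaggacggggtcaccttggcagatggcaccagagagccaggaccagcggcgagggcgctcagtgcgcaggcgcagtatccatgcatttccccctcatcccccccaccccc

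The Pgam2 window held a MEF2 match that begins 80 bases before the start, and the Pgam1 window held 1 ACGTG and 2 GCGTG. The Eno3 window and the printed Eno1 window held 1 GCGTG each. The windows of the later Eno1 starts, which overlap each other and are not printed, held 2 GCGTG each. In RefSeq windows, 35 of the 37 genes were matched with 53 starts. CACGTG was found upstream of 6 of the 35 genes, ACGTG of 18, GCGTG of 21, MEF2 of 2 and TGATGNAA of none. A gene with several starts had several chances of a match. By window, CACGTG was in 6 of the 53, ACGTG in 22, GCGTG in 26, MEF2 in 2 and TGATGNAA in 0. The shares among all 32851 promoter windows of the same length were 6.02% for CACGTG, 16.6% for ACGTG and 28.2% for GCGTG. For MEF2 the share was 2.92% and for TGATGNAA 3.45%. A match describes the letters in the window and nothing more.

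At glucose uptake the main transporter fell and the constant one rose. Slc2a4 stood at 479, 384, 458 and 404 CPM in WT libraries 1 to 4 and at 311, 293, 324 and 304 CPM in TAZG197V libraries 1 to 4. Every TAZG197V value lay below every WT value, with a log2 fold change of -0.50 ± 0.08 (SE, edgeR adjusted p = 0.00177). Slc2a1 stood at 17.0, 15.5, 16.8 and 17.7 CPM in WT and at 33.5, 36, 30.2 and 26.1 CPM in TAZG197V. All 4 TAZG197V libraries were above all WT libraries, a 1.84-fold rise (log2 0.88 ± 0.08, edgeR adjusted p = 0.000142). Per kilobase Slc2a1 remained the smaller of the pair, at 8.98 ± 1.22 against 88.6 ± 3.66 CPM per kb of Slc2a4 in TAZG197V. Slc2a3, the neuronal and blood cell transporter GLUT3, read 3.72, 2.86, 3.50 and 25.7 CPM in WT and 1.82, 2.67, 1.58 and 12.0 CPM in TAZG197V. Both number 4 libraries were the high ones and the genotypes overlapped. The gene was called lower at log2 -1.03 ± 0.22 (edgeR, adjusted p = 0.00771), but without WT library 4 the value was -0.26 and no longer called (edgeR, adjusted p = 0.477), and without both number 4 libraries it was -0.70. It was called in 12 of 17 alternative fits. The part of the red cell and brain transcripts of these libraries in Slc2a3 was not tested.

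Hexokinase showed the same opposition. Hk1, the form of the fetal heart and brain that binds mitochondria, read 157, 158, 166 and 206 CPM in WT and 357, 368, 370 and 270 CPM in TAZG197V. TAZG197V library 4 was the lowest of its genotype and still above all WT libraries. The log2 fold change was 0.94 ± 0.11 (edgeR, adjusted p = 0.000363), and 1.18 without TAZG197V library 4. Hk2, the insulin-responsive muscle form, read 420, 365, 371 and 348 CPM in WT and 341, 291, 319 and 249 CPM in TAZG197V. The genotypes came close without overlapping, and the fall was small (log2 -0.33 ± 0.08, edgeR adjusted p = 0.0136). Gpi1, the isomerase that follows and has a single gene, rose from 364 to 412 CPM in WT to 539 to 601 CPM in TAZG197V (log2 0.57 ± 0.06), with no overlap.

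**Figure D2:**
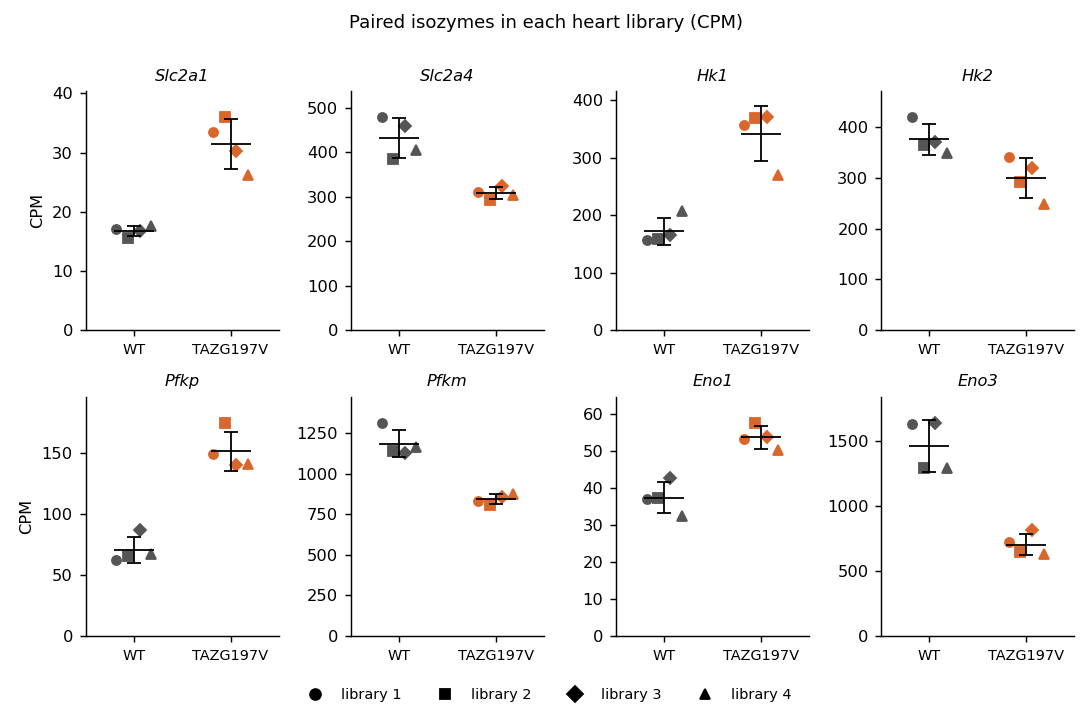
CPM of 4 isozyme pairs in each library, WT in grey and TAZG197V in orange, with the mean and SD as black bars, the marker shape giving the library number and each axis starting at 0. In each pair the left panel (Slc2a1, Hk1, Pfkp, Eno1) shows TAZG197V libraries above WT and the right panel (Slc2a4, Hk2, Pfkm, Eno3) shows them below.

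Phosphofructokinase commits sugar to glycolysis. Pfkm, its muscle subunit, read 1313, 1139, 1129 and 1162 CPM in WT and 830, 807, 854 and 877 CPM in TAZG197V. The groups were well apart (log2 -0.49 ± 0.08, edgeR adjusted p = 0.00156). Pfkp, the platelet subunit, read 62.6, 65.8, 86.7 and 67.1 CPM in WT and 149, 174, 140 and 141 CPM in TAZG197V. It rose 2.12-fold (log2 1.08 ± 0.11, edgeR adjusted p = 0.000184), with no overlap. Pfkl, the liver subunit, had 113 to 151 CPM in WT and 143 to 152 CPM in TAZG197V and was not called (log2 0.11 ± 0.06, edgeR adjusted p = 0.188).

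The 4 Pfkfb genes encode the bifunctional enzymes that make and remove the sugar bisphosphate that activates phosphofructokinase. Pfkfb1, the liver and muscle form, read 16.7, 14.9, 16.8 and 42.5 CPM in WT and 8.28, 8.39, 9.84 and 12.9 CPM in TAZG197V. WT library 4 was far above the other WT libraries, but all TAZG197V libraries were below all WT libraries. The log2 fold change was -1.20 ± 0.15 (edgeR, adjusted p = 0.000547), and -0.77 without WT library 4 (edgeR, adjusted p = 0.000857). Pfkfb2, the heart form, read 85.0, 69.9, 73.4 and 44.2 CPM in WT and 56.8, 39.6, 45.0 and 38.7 CPM in TAZG197V. WT library 4 lay among the TAZG197V values, the call was lower at log2 -0.54 ± 0.16 (edgeR, adjusted p = 0.0286), and it held in 13 of 17 alternative fits. It read -0.74 without WT library 4. Pfkfb3 and Pfkfb4 were not called, at log2 -0.11 ± 0.12 and 0.03 ± 0.12, though Pfkfb3 was called lower without both number 4 libraries (log2 -0.32, edgeR adjusted p = 0.0477). Fbp2, the muscle fructose bisphosphatase that runs the step backward, fell from 23.6 to 32.8 CPM in WT to 15.3 to 17.4 CPM in TAZG197V (log2 -0.80 ± 0.07, edgeR adjusted p = 0.000122).

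In the lower part of glycolysis several genes rose. Aldoa read 1734, 1532, 1966 and 1597 CPM in WT and 2229, 2402, 2285 and 2146 CPM in TAZG197V. All TAZG197V libraries were above WT (log2 0.39 ± 0.08, edgeR adjusted p = 0.00585). Tpi1, triosephosphate isomerase, had 398 to 504 CPM in WT and 489 to 645 CPM in TAZG197V and was called higher at log2 0.36 ± 0.07, although TAZG197V library 4 lay below the highest WT library. Pgk1, phosphoglycerate kinase, which makes ATP, rose from 12.9 to 15.3 CPM to 19.0 to 20.8 CPM (log2 0.49 ± 0.06), with 53.9% of its exon windows shared with copies such as Pgk1-rs7. Gapdh, the dehydrogenase between these, had 91.7 to 127 CPM in WT and 120 to 144 CPM in TAZG197V and was not called (log2 0.205 ± 0.08, edgeR adjusted p = 0.0773). It was called without both number 4 libraries (log2 0.27). Aldoc, the brain aldolase, read 0.372, 0.247, 0.117 and 6.56 CPM in WT and 0.327, 0.648, 0.290 and 11.9 CPM in TAZG197V. It was near 0 in all but the number 4 libraries and was not called (log2 0.40 ± 0.39), but was called higher without WT library 4 (log2 1.71, edgeR adjusted p = 0.0241) and not called without both number 4 libraries (log2 0.82, edgeR adjusted p = 0.225).

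Phosphoglycerate mutase and enolase went the other way in their muscle forms. Pgam2 read 453, 363, 493 and 354 CPM in WT and 320, 329, 284 and 298 CPM in TAZG197V. The groups did not overlap (log2 -0.44 ± 0.11, edgeR adjusted p = 0.0121). Pgam1, the ubiquitous form, rose from 1.95 to 2.91 CPM in WT to 4.03 to 4.43 CPM in TAZG197V (log2 0.79 ± 0.14, edgeR adjusted p = 0.00278), with 36.2% of its windows shared with processed copies.

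Apart from Pfkfb1, whose value rests in part on WT library 4, Eno3 had the largest fall among members without overlap. It read 1630, 1289, 1640 and 1292 CPM in WT and 720, 650, 812 and 634 CPM in TAZG197V. The lowest WT library stood far above the highest TAZG197V library, and the level fell to 0.477 of WT (log2 -1.07 ± 0.10, edgeR adjusted p = 0.000134). Eno1, the ubiquitous enolase, read 37, 37.2, 42.6 and 32.5 CPM in WT and 53.0, 57.5, 53.5 and 50.2 CPM in TAZG197V. All TAZG197V libraries were above all WT libraries (log2 0.53 ± 0.07, edgeR adjusted p = 0.000857), with 26% of its windows shared with other genes, above all Eno1b. Eno2, the neuronal enolase, read 1.22, 1.92, 0.971 and 10.0 CPM in WT and 0.908, 0.810, 0.678 and 17.7 CPM in TAZG197V. As for Aldoc, the number 4 libraries carried most of its counts, and it was not called (log2 -0.40 ± 0.16, edgeR adjusted p = 0.0772). The value was 0.02 without WT library 4. It was called lower without TAZG197V library 4 (log2 -0.94, edgeR adjusted p = 0.0498), and without both it was -0.75 (edgeR adjusted p = 0.0271) with a mean count under the minimum of 50.

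**Figure D3:**
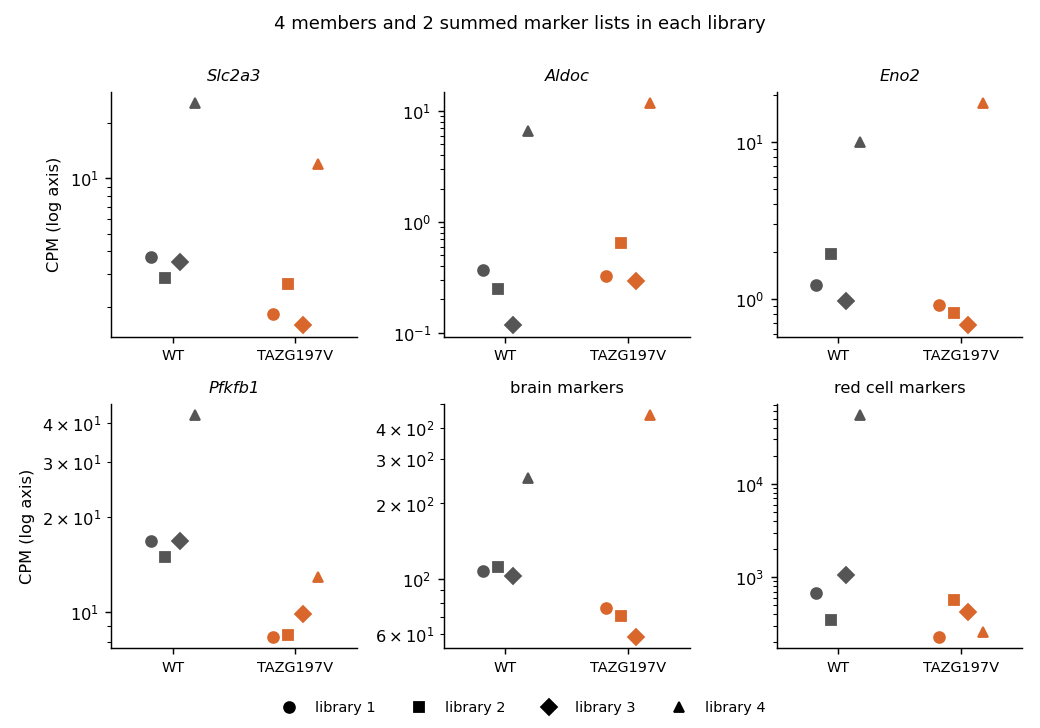
CPM on log axes of 4 members and of 2 summed marker lists in each library, WT in grey and TAZG197V in orange, with marker shapes for library numbers. Slc2a3, Aldoc, Eno2 and the brain markers are highest in library 4 of both genotypes, while the red cell markers (55072 CPM) and Pfkfb1 (42.5 CPM) stand apart in WT library 4.

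The last steps make and use pyruvate. Pkm, pyruvate kinase, had 594 to 696 CPM in WT and 562 to 642 CPM in TAZG197V and was not called (log2 -0.13 ± 0.06). These counts do not separate its splice forms. Ldha, the muscle lactate dehydrogenase subunit, read 447, 394, 438 and 409 CPM in WT and 257, 296, 328 and 312 CPM in TAZG197V. It was lower in all TAZG197V libraries (log2 -0.51 ± 0.09, edgeR adjusted p = 0.00299). Ldhb had 908 to 1093 CPM in WT and 783 to 965 CPM in TAZG197V and was not called (log2 -0.19 ± 0.07, edgeR adjusted p = 0.0635). Ldhd, which oxidises D-lactate in mitochondria, fell from 45.5 to 63.7 CPM to 33.3 to 38.1 CPM (log2 -0.76 ± 0.07), and Znrf1 exons cover 42.2% of its exon bases, so its counts cannot be fully told from those of Znrf1.

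Among the genes of glycogen synthesis, Gyg had the largest rise of the 37. Gyg, glycogenin, the protein on which each glycogen particle starts, read 162, 153, 178 and 146 CPM in WT and 533, 567, 475 and 410 CPM in TAZG197V. The lowest TAZG197V library was far above the highest WT library, a 3.07-fold rise (log2 1.62 ± 0.07, edgeR adjusted p = 3.6e-06). None of its exon windows is shared with another gene, and the log2 fold change was between 1.57 and 1.68 in 17 alternative fits. Gbe1, the branching enzyme, read 57.2, 57.5, 65.4 and 57.3 CPM in WT and 107, 94.2, 99.8 and 94.9 CPM in TAZG197V. It rose 1.66-fold with no overlap (log2 0.73 ± 0.07, edgeR adjusted p = 0.000134). Ugp2, which makes the UDP-glucose from which glycogen is built, read 300, 285, 403 and 263 CPM in WT and 470, 424, 415 and 400 CPM in TAZG197V. It was called higher (log2 0.45 ± 0.12, edgeR adjusted p = 0.0173), with WT library 3 inside the TAZG197V range, and in 15 of 17 alternative fits. Gys1, the muscle glycogen synthase itself, had 110 to 151 CPM in WT and 111 to 129 CPM in TAZG197V. Its log2 fold change of -0.19 ± 0.06 had an adjusted p of 0.0365 in edgeR, and it did not reach the limit of 0.202. That value rests on the number 4 libraries, since it was -0.07 without WT library 4 (edgeR adjusted p = 0.593), -0.05 without TAZG197V library 4 (edgeR adjusted p = 0.707) and -0.03 without both (edgeR adjusted p = 0.764). It was called lower in 3 of 17 alternative fits, each with another library left out, at -0.24.

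Glycogen is broken down by the phosphorylases. Pygm, the muscle phosphorylase, had 1082 to 1288 CPM in WT and 1170 to 1269 CPM in TAZG197V (log2 -0.02 ± 0.07, edgeR adjusted p = 0.83). Pygb, the brain phosphorylase and also abundant in heart, had 931 to 1135 CPM in WT and 972 to 1101 CPM in TAZG197V (log2 0.04 ± 0.08). Neither was called in any of 17 alternative fits. Pygl, the liver phosphorylase, read 4.90, 4.37, 5.13 and 10.1 CPM in WT and 12.8, 10.4, 11.4 and 7.44 CPM in TAZG197V. The number 4 libraries broke an otherwise clear separation. Its call (log2 0.71 ± 0.22, edgeR adjusted p = 0.0340) was kept in only 7 of 17 alternative fits, but without both number 4 libraries the value was 1.27 (edgeR, adjusted p = 0.000117). Pgm1, the main phosphoglucomutase, which links glycogen to glycolysis, had 205 to 239 CPM in WT and 224 to 278 CPM in TAZG197V. Its log2 fold change of 0.195 ± 0.05 (edgeR, adjusted p = 0.0199) did not reach the limit of 0.202, and it was called without both number 4 libraries at 0.29. Pgm2, a minor form, was not called (log2 0.06 ± 0.15).

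**Figure D4:**
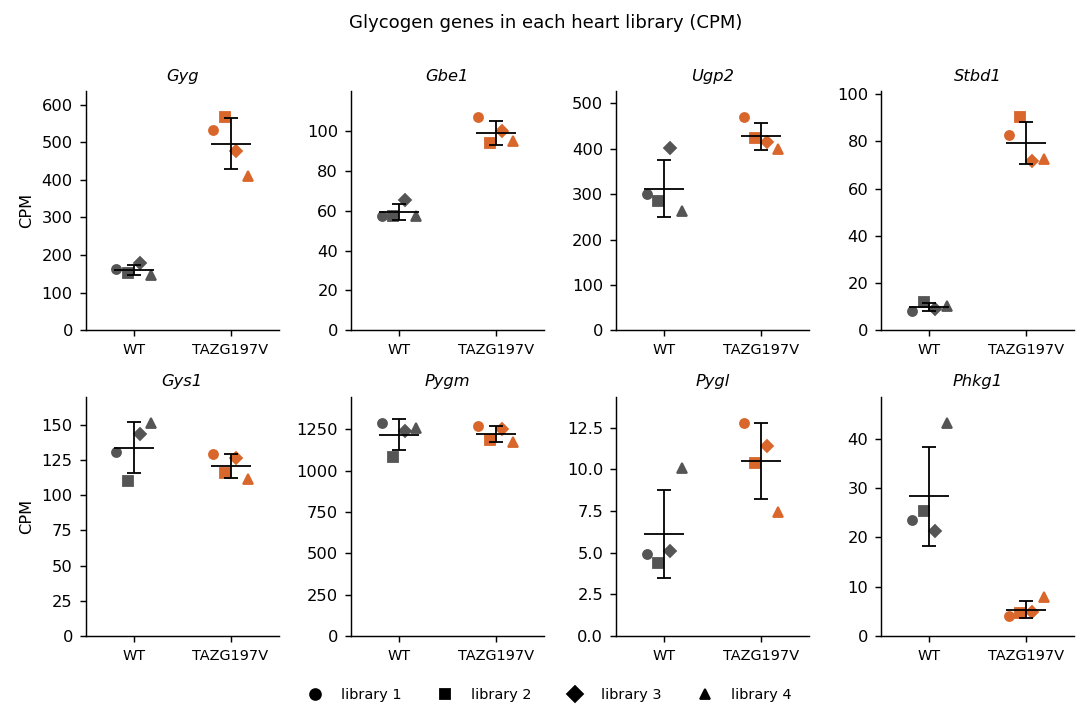
CPM of 6 glycogen members and of Stbd1 and Phkg1 in each library, WT in grey and TAZG197V in orange, with mean and SD as black bars and axes starting at 0. Gyg, Gbe1 and Stbd1 lie higher in all TAZG197V libraries and Phkg1 lower, while Gys1, Pygm and Pygl overlap between genotypes.

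To compare the isozymes of a step directly, the muscle or heart form was expressed as its share of the counts per kilobase of the members at that step, and the log2 ratio of that form to the others was compared between genotypes by an exact permutation test, two-sided, in 10 steps. With 4 against 4 libraries the smallest p is 0.0286, which becomes 0.0476 after Benjamini-Hochberg adjustment over the 10 steps when 6 reach it, as they did here. With any library left out, or on counts not divided by length, 1 of these 6 steps missed the smallest p and the exact permutation p of the other 5 adjusted to 0.0571. These ratios are formed within a library and so do not depend on its scaling. All of these genes also entered the fits above, so the ratios are another view of those values and not separate evidence.

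The share of Hk2 at the hexokinase step showed the widest shift, from 79.3, 76.8, 76.2 and 70.7% in WT to 57.8, 53.1, 55.2 and 56.8% in TAZG197V. The mean went from 75.7 ± 3.63% to 55.7 ± 2.06% (SD, n = 4), a log2 ratio lower by 1.32 in TAZG197V, with an exact permutation p of 0.0286. Slc2a4 went from 95.3 ± 1.49% to 90.2 ± 1.06% of the counts per kilobase of Slc2a4, Slc2a1 and Slc2a3 together, and Pfkm from 93.3 ± 0.902% to 88.3 ± 0.840% of phosphofructokinase. Eno3 went from 99.1 ± 0.145% to 97.3 ± 0.592% and Pgam2 from 99.8 ± 0.0435% to 99.4 ± 0.0443%, so that both stayed by far the main form. The differences in log2 ratio were -1.19 for glucose transport, -0.89 for phosphofructokinase, -1.57 for enolase and -1.27 for phosphoglycerate mutase, each without overlap and with the smallest p the exact test allows. The shares of Pgam2 and Eno3 carry the uncertainty in the levels of Pgam1 and Eno1. With Slc2a3 and Eno2 left out of the other forms, the differences were -1.38 for glucose transport and -1.58 for enolase.

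Lactate dehydrogenase was the step where the heart form gained. Ldhb held 83.7, 83.3, 83.9 and 82.4% in WT and 88.2, 86.2, 86.1 and 84.1% in TAZG197V, and the log2 ratio was higher by 0.32 in TAZG197V with no overlap (exact permutation p = 0.0286). The gain in share came with a fall of Ldha, while Ldhb was not called in edgeR and was called lower in DESeq2 (log2 -0.20, adjusted p = 0.0204). At the other 4 steps the ratio did not separate the genotypes. Pygm held 64.3 ± 2.64% of phosphorylase in WT and 63.9 ± 1.91% in TAZG197V (exact permutation p = 0.714). Pgm1 held 97.3 ± 0.469% and 97.7 ± 0.417% of phosphoglucomutase (exact permutation p = 0.400), and Aldoa 99.9% of aldolase in both (exact permutation p = 0.714). Pfkfb2 held 53.5 ± 15.0% and 54.9 ± 6.74% of the Pfkfb transcripts (exact permutation p = 0.914), where WT library 4 alone stood at 31.1% against 59.1 to 62.3% in the other WT libraries.

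**Figure D5:**
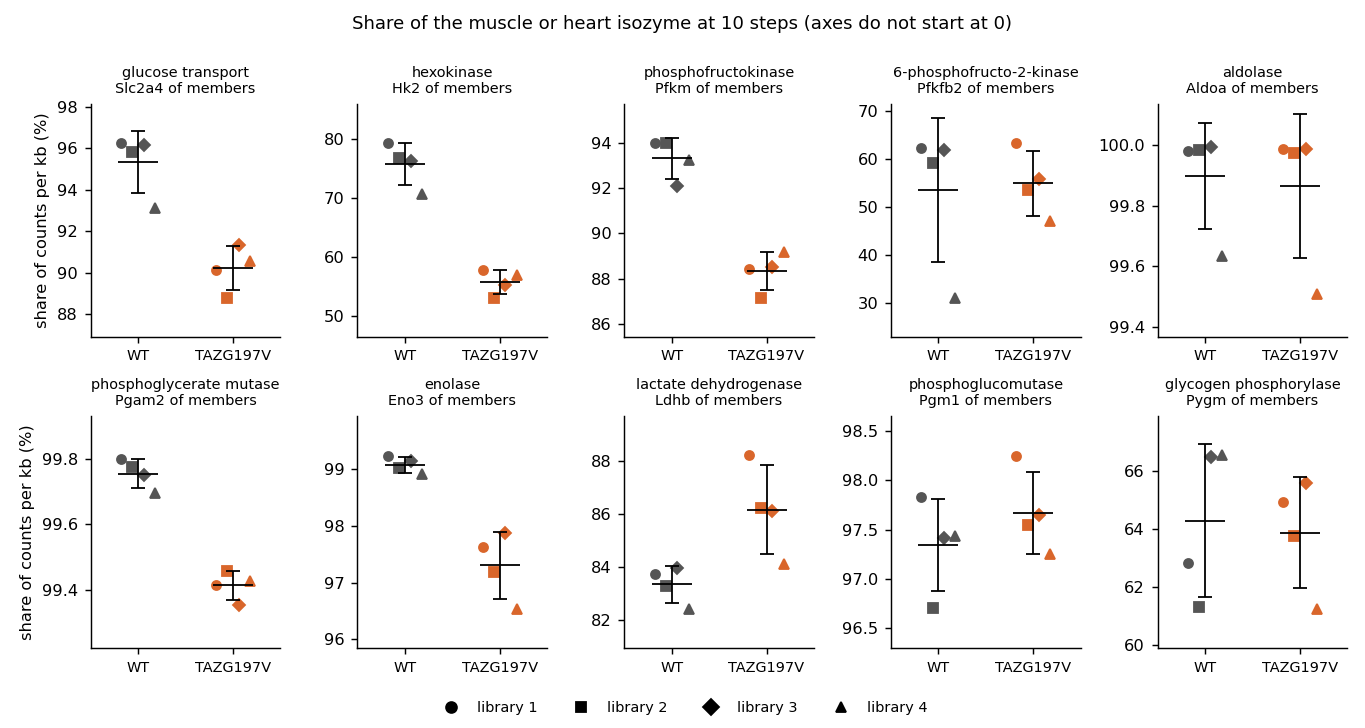
Share of the named muscle or heart isozyme in the counts per kilobase of the members of its step, in each library, WT in grey and TAZG197V in orange, with mean and SD as black bars, on axes that do not start at 0. Hk2 drops from 75.7% to 55.7% on average and Ldhb rises from 83.3% to 86.2%, while Pfkfb2, Aldoa, Pgm1 and Pygm overlap between genotypes.

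The summed level of a step did not always follow its main isozyme. Summed per kilobase, enolase in TAZG197V was at 0.490 of WT, phosphoglycerate mutase at 0.742, phosphofructokinase at 0.751 and the sum of Slc2a4, Slc2a1 and Slc2a3 at 0.755, each with all TAZG197V libraries below all WT libraries. Hexokinase summed to 83.1 ± 3.91 CPM per kb in WT and 90.3 ± 11.7 in TAZG197V and overlapped, with Hk1 up and Hk2 down. Aldolase was the step whose sum lay higher without overlap, at 1.33 of WT. The Pfkfb sum was at 0.634 of WT with no overlap, while lactate dehydrogenase (0.852), phosphoglucomutase (1.16) and phosphorylase (1.01) overlapped.

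Genes around these steps were read from 5 further lists. Of 10 other glucose transporters 8 were tested and 1 was called, Slc2a12 (GLUT12), which fell from 7.45 to 16.3 CPM in WT to 5.35 to 5.97 CPM in TAZG197V (log2 -1.07 ± 0.10, edgeR adjusted p = 0.000136). WT library 4 was the high one, and the value was -0.77 without it and -0.73 without both number 4 libraries, called in each. Of 17 regulators of glucose uptake, all tested, 3 were called higher and 5 lower. Mlxipl, the glucose-sensing transcription factor ChREBP, read 26.6, 24.8, 32.5 and 25.4 CPM in WT and 10.7, 8.04, 10.3 and 10.6 CPM in TAZG197V, a fall of log2 -1.48 ± 0.13 (edgeR, adjusted p = 9.0e-05). Epas1, a hypoxia-inducible factor of vessels and heart, fell (log2 -0.53 ± 0.07), as did Tbc1d1, a brake on GLUT4 traffic (log2 -0.46 ± 0.10), and neither overlapped. Hif1a, the general hypoxia-inducible factor, was called higher at log2 0.44 ± 0.09 with 78.7 to 86.1 CPM in WT and 79.5 to 135 CPM in TAZG197V, where library 4 was the low one, and the value was 0.59 without both number 4 libraries. Endothelial markers, among which Epas1 is strong as background, summed to 651 to 899 CPM in WT and 503 to 702 CPM in TAZG197V with 2 of 5 called lower, and their part in Epas1 was not tested.

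Of 15 further isozymes of the same steps only 7 were tested, since the rest were too low. Tigar, a phosphatase that slows glycolysis, was called higher, with 56.6 to 77.7 CPM in WT and 80.9 to 105 CPM in TAZG197V and no overlap (log2 0.45 ± 0.09, edgeR adjusted p = 0.00551).

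Of 22 genes of the glycogen particle and its control 21 were tested, 4 called higher and 5 lower. Stbd1, which tethers glycogen to membranes, read 8.02, 12.0, 9.09 and 10.2 CPM in WT and 82.5, 90.3, 71.5 and 72.4 CPM in TAZG197V. Every TAZG197V library stood far above WT, the largest change among these lists upward (log2 3.05 ± 0.13, edgeR adjusted p = 2.8e-06). Phkg1, the muscle catalytic subunit of phosphorylase kinase, read 23.5, 25.3, 21.4 and 43.2 CPM in WT and 4.03, 4.64, 4.78 and 7.88 CPM in TAZG197V (log2 -2.43 ± 0.11, edgeR adjusted p = 3.6e-06). It was -2.24 without WT library 4, the high one. Phka2, the liver regulatory subunit of the same kinase, fell (log2 -0.63 ± 0.11), as did Epm2a, the glycogen phosphatase laforin (log2 -0.55 ± 0.08). Phka1, the muscle counterpart of Phka2, was called higher at log2 0.32 ± 0.06 and is named after its value was seen.

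Of 13 genes of the pentose phosphate and hexosamine branches, all tested, 4 were called higher and 2 lower. Pgls, the lactonase of the pentose phosphate path, rose from 28 to 36.9 CPM to 43.8 to 59.3 CPM (log2 0.71 ± 0.07), and Pgm3, of the hexosamine path, was called higher (log2 0.58 ± 0.14, edgeR adjusted p = 0.0133) but not without WT library 4 (log2 0.44, edgeR adjusted p = 0.0646), while without both number 4 libraries it was called (log2 0.45, edgeR adjusted p = 0.0408). Gfpt2, which opens the hexosamine path in cells such as fibroblasts, was called lower (log2 -0.93 ± 0.29, edgeR adjusted p = 0.0339) with overlapping genotypes. The fibroblast markers were lower without overlap, at 571 to 774 CPM in TAZG197V against 835 to 1346 CPM in WT with 4 of 5 called lower, and their part in Gfpt2 was not tested. Rpia, a pentose isomerase, was called lower at log2 -0.28 ± 0.08 and not without WT library 4 (log2 -0.24, edgeR adjusted p = 0.0797).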

How the data were processed

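RNA of 4 WT and 4 TAZG197V mouse heart samples was sequenced as 50-base single-end reads, grouped as the labels give them. Per the labels and the submitters' processing notes, the authors demultiplexed reads with bcl2fastq 2.20.0, checked them with FastQC 0.11.9, aligned them to mm10 with STAR 2.7.3a and made raw counts per gene over exons with featureCounts of Subread 2.0.0. The deposited values are whole-number counts. Strand setting and annotation release are not given in the sources used here. The 92 spike-in rows summed to 0 and were left out. Symbols and exon lengths came from GENCODE M21 (GRCm38), which named 55144 of 55471 IDs.

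Genes kept by filterByExpr (15084) were TMM-scaled and tested in R 4.3.3 with the quasi-likelihood test of edgeR 4.0.16, two-sided, with 2 surrogate variables from sva 3.50.0 (seed 1) and p-values adjusted by Benjamini-Hochberg over the whole table. The standard error is the absolute log2 fold change divided by the root of F. Isozyme ratios were tested by exact permutation. DESeq2 1.42.0, other covariates, scalings, filters and left-out libraries were alternatives. Library totals of 23055689 to 36301031 counts leave the spread between samples as the main error. The labels do not name the animal behind each library, so p-values measure the spread between these samples. Per the file names, libraries 1 and 2 of each genotype ran on lane 7 and libraries 3 and 4 on lane 8. The named genes are all 37 members, Taz, up to 4 called genes with the largest change per further list, and markers beside a result they move with. The members and lists were chosen with earlier results of these data known. A result of the list of further isozymes is not reported here.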

Additional observations from a re-analysis of the deposited data

Results flagged for a closer look

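A library was set apart where its gap to the nearest library of its genotype was a larger part of the range of 4 than chance allows in about 1 of 20 sets. Of 118 sets examined, 22 held such a library, where chance would give 5.9.

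Among the members, WT library 4 was high for Slc2a3 (gap 0.962 of the range), Pfkfb1 (0.934), Aldoc (0.960), Eno2 (0.894) and Pygl (0.868). It was low for the log2 ratio of Pfkfb2 to the other Pfkfb genes (0.898), at -1.15 against 0.53 to 0.72 in the other WT libraries. TAZG197V library 4 was high for Slc2a3 (0.895), Aldoc (0.969) and Eno2 (0.986), and low for Hk1 (0.863) and Pgm1 (0.956). Gbe1 was high in WT library 3 (0.964), at 65.4 CPM against 57.2 to 57.5 CPM.

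Among the marker sums, WT library 4 was high for red cells (0.987), neutrophils (0.945) and brain (0.941), and TAZG197V library 4 for brain (0.954), adipocytes (0.954) and liver (0.935). WT library 2 was high for atrial (0.901), fibroblast (0.898) and adipocyte markers (0.868), and TAZG197V library 2 for atrial markers (0.873). The atrial sum was 1111 CPM in WT library 2 and 17.0 to 125 CPM in the other WT libraries. The part of these markers in the members was tested only by leaving libraries out.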

How the results depend on the processing

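Across alternatives, 3675 to 4816 genes were called with a library left out, 4717 with DESeq2, 4192 with no surrogate variables, 4235 with the sequencing lane (12 members higher, 10 lower) and 5191 without both number 4 libraries, an alternative chosen after seeing the data. At a 1.5-fold minimum 1843 genes, 7 members higher, 5 members lower and 8 genes of the further lists were called, since the limit is stricter. Of the 24 called members, 20 were called in all 17 alternative fits and all 24 kept their direction, while Slc2a3, Pfkfb2, Ugp2 and Pygl were lost in some. With a library left out 11 to 15 members were called higher, 10 to 12 lower, and 23 to 27 genes of the further lists.

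The sample numbers were not taken to pair the samples. No label gives them a meaning, deviations of same-numbered libraries correlated at 0.278, 0.0436, 0.280 and 0.416 for numbers 1 to 4, where number 2 was near 0, and those of different numbers at -0.464 to 0.317. With the replicate block 4272 genes, 13 members higher, 11 lower and 22 further genes were called, Pygl was lost and Gapdh gained (log2 0.24).

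Uncalled members changed sign as follows, and the cause was not tested. Pfkfb3 ranged from -0.35 to 0.0497 with a library left out, and was above 0 without WT 1. Pfkfb4 ranged from -0.0475 to 0.25, below 0 at -0.0262, -0.0357 and -0.0040 too. Eno2 read 0.52 with no surrogate variables, 0.0096 with the lane, and -0.94 to 0.0212 with a library left out. Pgm2 read -0.00014 without both number 4 libraries. Pygm read 0.0019 with no and with 1 surrogate variable, 0.0023 with the lane, 0.0043 with the replicate block, 0.0270 with no filter, 0.0447 without both number 4 libraries, and -0.0583 to 0.0375 with a library left out (0.0256 without WT 4). Pygb read -0.0184 with no filter, -0.0482 without both, and -0.0394 to 0.12 with a library left out (-0.0217 without WT 4).

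For the isozyme ratios, 5 of the 6 steps gave an adjusted exact permutation p of 0.0571 with any library left out, while lactate dehydrogenase (a WT library left out) or glucose transport (a TAZG197V library left out) missed the smallest p and gave 0.0952. The differences were then -1.40 to -1.10 for glucose transport, -1.45 to -1.23 for hexokinase, -0.99 to -0.84 for phosphofructokinase, -1.38 to -1.18 for phosphoglycerate mutase, -1.68 to -1.43 for enolase, 0.24 to 0.41 for lactate dehydrogenase, -0.36 to 0.26 for Pfkfb, -1.68 to 0.82 for aldolase and -0.0893 to 0.0271 for phosphorylase. Without both number 4 libraries, where 3 against 3 adjusted to 0.167 at best, they were, in the same order, -1.42, -1.47, -0.94, -1.39, -1.52, 0.37 and -0.21, with phosphorylase at 0.0743. On raw counts without exon length they were -1.06, -1.32, -1.04, -1.27, -1.57, 0.32 and -0.0066, where 5 steps reached the smallest p and adjusted to 0.0571, and glucose transport to 0.0952.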
